A study of Mus musculus with 16 samples.

Results

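The genes described here make up the core of the cellular response to low oxygen: the hypoxia-inducible factor (HIF) subunits Hif1a and Arnt, the oxygen-sensing hydroxylases Egln1 and Egln3, and the HIF targets Pdk1, Slc2a1, Vegfa, Bnip3, P4ha1 and Adm. They were chosen by symbol, as regulators and classical targets of HIF-1 outside the enzymes of glycolysis. Of the 10 genes, 9 had a row among the 10208 genes tested; Adm, which encodes the vasodilator peptide adrenomedullin, had none, so its expression was not analysed here. RNA came from pancreatic islets of mice of a mixed, mostly C57Bl/6 background. The labels give every sample 1 genotype string, Ins1-/-:Ins2f/f:Pdx1CreERT:mTmG, and state that tamoxifen was given 6 days before the islets were isolated. Read literally, both groups lacked Ins1 and carried loxP-flanked Ins2, the tamoxifen-activated recombinase CreERT driven by Pdx1 sequence, and mTmG, a membrane-fluorescence reporter of recombination. The 16 samples were labelled Cre+T (7) or Cre-T (9), and since the string is shared, it leaves unclear if the Cre-T animals had the CreERT transgene. Pdx1 is active in beta cells and in some other pancreatic cells. The comparison asks what loss of Ins2 on an Ins1-null background does to islet RNA. Ins2 message was not absent in either group: it was estimated at 16.08 log2 CPM in Cre+T and 16.54 in Cre-T, under the direction taken below. The groups also differed in Esr1, part of CreERT. Its estimated level was 9.23 log2 CPM in Cre+T and -0.07 in Cre-T, under the direction taken below, so 1 group held little such message. An effect of CreERT itself therefore cannot be told apart from one of Ins2 loss.

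HIF-1 is a dimer of an oxygen-labile subunit, encoded by Hif1a, and a stable partner, encoded by Arnt. When oxygen is present, the prolyl hydroxylases encoded by the Egln genes mark the labile subunit for capture by the von Hippel-Lindau ubiquitin ligase, so the control lies mainly at the protein. When oxygen is short, the dimer binds short DNA elements and raises genes of glucose uptake, glycolysis, angiogenesis, mitophagy and collagen maturation, and also raises some Egln genes, which closes a feedback loop. Islets are densely supplied with blood vessels through VEGF made by beta cells, and they are known to become hypoxic after isolation.

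All values below come from the authors' limma fit, which gave 1 fold change per gene and no value per sample. The header does not name the direction, and it was taken to be Cre+T over Cre-T, given Ins2 at -0.47 and Esr1, part of CreERT, at 9.30 log2 units, from the authors' deposited table; the lower Ins2 and higher Esr1 in Cre+T are therefore assumed and check neither the deletion nor the labels. The ± values are standard errors, obtained by dividing the fold change by t, intervals are 95% intervals from them, and a gene is called at a limma adjusted p under 0.05. The depth of each sample is unknown, the labels state 20000000 read pairs for each, and no label says whether samples came from separate animals, so the spread behind the p-values may be technical in part. Sample titles begin with 6 unexplained numbers, of which 2 hold both groups (7 samples), so a difference between numbers and the groups cannot be told apart for the other samples. The tissue label fitted the markers: Ins2 had the highest mean, 16.34 log2 CPM, followed among islet markers by Iapp at 14.66 and Gcg at 14.13, from the authors' deposited table.

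Of the 9 measured HIF pathway members, 2 were called, Pdk1 lower and Arnt higher, from the authors' deposited table. That is 22.2% of the members, beside 37.6% of all genes tested, a difference that rests on 9 genes and was not tested. Over all genes 17.6% were higher and 20.1% lower, and 1 of 9 members went each way. At an unadjusted p under 0.05 there were 3 members, the other being Vegfa. The median log2 fold change of the members was -0.17, beside -0.0030 for all genes, and 6 members had a negative value. The split of calls depended on scaling. Under a shift of 0.14 log2 units, at which both groups have the same summed expression (the equal-sum scale), no member was higher and 2, Pdk1 and Vegfa, were lower, while the counts over all genes went from 1794 higher and 2049 lower to 860 and 3934. On that scale 47.0% of all genes were called, 8.42% higher and 38.5% lower. With ribosomal protein genes centred on 0 the members again stood at 0 higher and 2 lower. Of all 10208 genes, 1239 were then higher and 2839 lower.

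**Figure D1:**
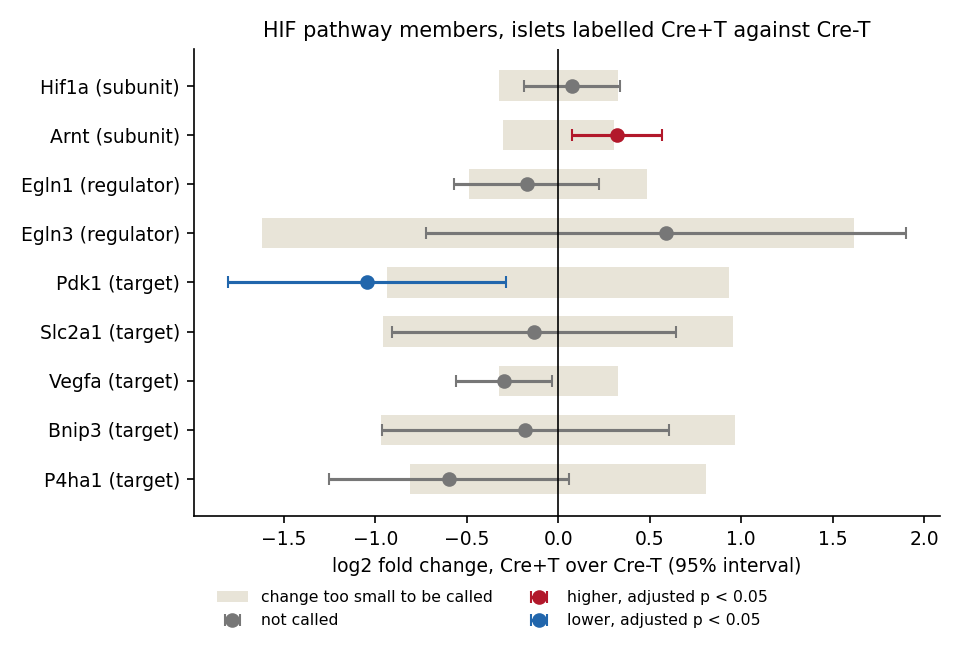
Log2 fold change of each measured member (horizontal axis, Cre+T over Cre-T) with its 95% interval, by gene and role. Beige bars span the changes too small to be called at that gene's standard error; Pdk1 at -1.05 and Arnt at 0.32 lie outside theirs, and the bar of Egln3 reaches 1.62.

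Hif1a, the oxygen-labile subunit, was not called at its messenger RNA. Its log2 fold change was 0.08 ± 0.12 with a limma adjusted p of 0.646, from the authors' deposited table. The interval of the fold ran from 0.879 to 1.27. Its sign turned on the equal-sum scale, to -0.07. Hif1a (ENSMUSG00000021109.8) lies on chromosome 12 from 73901375 to 73947530 on GRCm38, plus strand, and shares exonic bases with an antisense gene and with a predicted coding gene on its own strand in GENCODE release M21. Whether the authors counted by strand is not given in the sources used here, so reads of overlapping genes may be mixed in. Its estimated level was 7.37 log2 CPM in Cre+T and 7.30 in Cre-T, from the authors' mean and fold change; these and the other estimated levels assume that all 7 and 9 labelled samples entered the fit.

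Arnt, the constitutive partner of Hif1a and of other factors of the same family, was called higher. It was 1.25-fold higher, or 0.32 ± 0.12 log2 units (limma adjusted p = 0.0394), from the authors' deposited table. The smallest change that would have been called at its error was 0.30. The call was lost on the equal-sum scale (log2 fold change 0.18, adjusted p = 0.214) and with the median ribosomal protein gene at 0 (0.25, adjusted p = 0.0900), with values between 0.0128 and 1 among the alternatives. Arnt (ENSMUSG00000015522.13) lies on chromosome 3 from 95434388 to 95497240 and shares no exonic bases with another gene.

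Of the HIF subunits, a list of 5 that includes Hif1a and Arnt, 4 were measured, of which Arnt and Epas1 were higher, Arnt2 was lower and Hif1a was not called, from the authors' deposited table. The share called was 75% of these 4 genes, beside 37.6% of all genes (17.6% higher and 20.1% lower). Epas1, the oxygen-labile subunit of HIF-2, which is abundant in endothelium, was at 0.75 ± 0.29, with a limma adjusted p of 0.0496, from the authors' deposited table. Arnt2, a paralogue of Arnt known from neurons, was at -0.46 ± 0.17, with a limma adjusted p of 0.0495, from the authors' deposited table. Both stood at the edge of the threshold: Epas1 lost its call on the equal-sum scale (adjusted p = 0.0924), and Arnt2 lost it with the median of all genes at 0 (adjusted p = 0.0509). Adjusted p ranged from 0.0161 to 1 for Epas1 and from 0.0108 to 1 for Arnt2 over the alternatives. On the equal-sum scale, no subunit was higher and 1 was lower, beside 8.42% of all genes higher and 38.5% lower there. Endothelial markers stood beside Epas1 as follows: 1 of 10, the fenestral diaphragm gene Plvap at 0.995 ± 0.244, was higher and none was lower, from the authors' deposited table. At an unadjusted p under 0.05 that limma fit gave the same 1 higher and 0 lower. Their estimated summed level was 671 CPM in Cre+T and 540 in Cre-T, all 10 had a row, and their part in the Epas1 value was not tested. In RNA of whole islets, fewer cells of a type and less RNA per cell cannot be told apart.

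Egln1, the main HIF prolyl hydroxylase in most tissues, was not called. Its log2 fold change was -0.17 ± 0.19 with a limma adjusted p of 0.480, from the authors' deposited table, and its fold had an interval from 0.675 to 1.17. Egln3, the hydroxylase most strongly induced by HIF itself, was also not called, at 0.59 ± 0.62 with a limma adjusted p of 0.469, from the authors' deposited table. Egln3 had the lowest mean of the members, 1.94 log2 CPM, from the authors' deposited table, and the widest interval of the fold, 0.606 to 3.73. A change below 1.62 log2 units would not have been called for it. Egln1 (ENSMUSG00000031987.5) lies on chromosome 8 from 124908587 to 124949324 and Egln3 (ENSMUSG00000035105.5) on chromosome 12 from 54178981 to 54203860, both on the minus strand.

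Of 14 listed and measured regulators of HIF stability or activity, Egln1 and Egln3 included, 2 were higher, 1 was lower and 11 were not called, which is 21.4% beside 37.6% of all genes, from the authors' deposited table. Rbx1, the RING subunit of the ubiquitin ligase that binds hydroxylated HIF, fell (-0.23 ± 0.08 log2 units, limma adjusted p = 0.0300), from the authors' deposited table. Hsp90aa1, an inducible form of the chaperone HSP90, was at 0.26 ± 0.10 with a limma adjusted p of 0.0487, from the authors' deposited table. Cited2, a HIF-induced protein that competes with HIF for its coactivators, was at 0.41 ± 0.16 with a limma adjusted p of 0.0496, from the authors' deposited table. Tceb1, which encodes elongin C of the same ligase, was at 0.15 ± 0.06 and not called, from the authors' deposited table. The calls of Hsp90aa1 and Cited2 were lost on the equal-sum scale (adjusted p = 0.340 and 0.170). With that scaling no regulator was higher and 5 were lower, and the list median went from 0.14 to -0.0034. Over all genes 8.42% were higher and 38.5% lower on that scale. The adjusted p of Hsp90aa1 and Cited2 ranged from 0.0159 to 1 and from 0.0161 to 1 over the alternatives.

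Pdk1, a mitochondrial kinase that holds back pyruvate dehydrogenase and so keeps pyruvate out of the citric acid cycle, was the 1 HIF target among the members that fell. Its fold, Cre+T over Cre-T, was 0.484, with an interval of 0.286 to 0.820. Its log2 fold change was -1.05 ± 0.36 with a limma adjusted p of 0.0318, from the authors' deposited table, and by p it ranked 3189 of 10208 genes. Its estimated level was 4.59 log2 CPM in Cre+T and 5.64 in Cre-T. Of the 9 alternatives that could be applied to it, only the scalings alter a fold change, by 0.14 log2 units at most. Its log2 fold change thus stayed between -1.19 and -1.04 by construction, which is no check of its direction. The call was lost at an adjusted p under 0.01 and with Holm adjustment (adjusted p of 1, in a range of 0.0103 to 1).

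The other measured members grouped here as targets, Vegfa, P4ha1, Bnip3 and Slc2a1, were not called and had negative values. Egln1 and Egln3, grouped as regulators but also counted among the HIF targets below, were at -0.17 and 0.59. The shared sign therefore depends on that grouping. Vegfa, the growth factor through which beta cells maintain islet capillaries, was at -0.30 ± 0.12 with an unadjusted p of 0.0296 and a limma adjusted p of 0.0698, from the authors' deposited table. Its interval of the fold ran from 0.678 to 0.977 without correction for the number of genes. It was called lower on the equal-sum scale (-0.44, adjusted p = 0.00917) and with the median ribosomal protein gene at 0 (-0.36, adjusted p = 0.0289), with values between 0.00917 and 1 among the alternatives. P4ha1, the catalytic subunit of the hydroxylase that stabilises the collagen triple helix, was at -0.60 ± 0.31 with a limma adjusted p of 0.136, from the authors' deposited table. Bnip3, a mitochondrial outer membrane receptor for mitophagy, was at -0.18 ± 0.37 with a limma adjusted p of 0.724, from the authors' deposited table. Slc2a1, the glucose transporter GLUT1, was at -0.13 ± 0.37 with a limma adjusted p of 0.793, from the authors' deposited table. None of these 3 intervals excluded an equal level: the fold ran from 0.420 to 1.04 for P4ha1, from 0.512 to 1.52 for Bnip3 and from 0.532 to 1.56 for Slc2a1. The smallest changes that would have been called were 0.97 log2 units for Bnip3 and 0.96 for Slc2a1.

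Pdk1 (ENSMUSG00000006494.6) lies on chromosome 2 from 71873224 to 71903858 and P4ha1 (ENSMUSG00000019916.9) on chromosome 10 from 59323296 to 59373304. Vegfa (ENSMUSG00000023951.11) lies on chromosome 17 from 46016993 to 46032369. None of these 3 shares exonic bases with another gene. Bnip3 (ENSMUSG00000078566.3) on chromosome 7 from 138890836 to 138909519 and Slc2a1 (ENSMUSG00000028645.5) on chromosome 4 from 119108711 to 119137983 each share exonic bases with an annotated antisense gene, so their values may hold its reads.

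The promoters of Pdk1, the target that fell, and of Slc2a1, Bnip3 and P4ha1, members whose errors were wide for their expression, are shown to give the HIF sites a place. Each is the 250 bases before the transcription start, from RefSeq on GRCm38.p6, 5′ to 3′ on the gene's strand. Capitals mark the HIF core motif on either strand, searched as ACGTG or GCGTG and their reverse complements; ACGTG on both strands overlaps where the 6 letters CACGTG occur.

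Pdk1, chr2:71872974-71873223, plus strand: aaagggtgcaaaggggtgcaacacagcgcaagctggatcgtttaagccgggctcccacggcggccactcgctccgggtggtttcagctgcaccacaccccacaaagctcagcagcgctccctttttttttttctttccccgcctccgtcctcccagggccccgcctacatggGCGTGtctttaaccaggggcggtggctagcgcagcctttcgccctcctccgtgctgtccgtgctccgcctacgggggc

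Slc2a1, chr4:119108495-119108744, plus strand: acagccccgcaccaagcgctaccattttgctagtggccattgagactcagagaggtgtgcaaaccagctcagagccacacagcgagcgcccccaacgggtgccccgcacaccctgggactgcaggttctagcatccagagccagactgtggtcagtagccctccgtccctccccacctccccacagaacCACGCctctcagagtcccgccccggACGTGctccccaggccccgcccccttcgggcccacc

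Bnip3, chr7:138909507-138909756, minus strand: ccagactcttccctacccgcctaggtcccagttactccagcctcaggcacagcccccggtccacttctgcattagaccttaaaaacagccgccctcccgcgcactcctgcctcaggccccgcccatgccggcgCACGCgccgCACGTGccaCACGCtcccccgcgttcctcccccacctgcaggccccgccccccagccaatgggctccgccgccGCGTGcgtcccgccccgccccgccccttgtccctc

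P4ha1, chr10:59323046-59323295, plus strand: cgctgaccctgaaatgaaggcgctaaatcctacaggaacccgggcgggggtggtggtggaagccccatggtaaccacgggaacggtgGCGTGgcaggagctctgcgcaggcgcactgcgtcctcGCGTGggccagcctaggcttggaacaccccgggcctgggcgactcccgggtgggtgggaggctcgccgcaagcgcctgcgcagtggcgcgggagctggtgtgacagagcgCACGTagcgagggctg

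The Pdk1 window shown held 1 motif, 78 bases before the start, while a second annotated start of Pdk1 had none in its window. Vegfa also had a pair of windows. The window next to the outer end of its annotated gene held none, and its 2 motifs were in a window that lies inside the gene. Slc2a1 held 2, at 61 and 36 bases. Bnip3 held 5, of which 2 are the 2 strands of 1 CACGTG at 108 bases, and P4ha1 held 3, the nearest at 16 bases. The motif is short and common. It occurred in 10 of the 12 windows of the 10 members (all 10 matched by symbol), in 57.3% of 10116 windows of genes in the table and in 38.6% of all 32851 windows. A match is a description of the sequence and no evidence of binding.

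**Figure D2:**
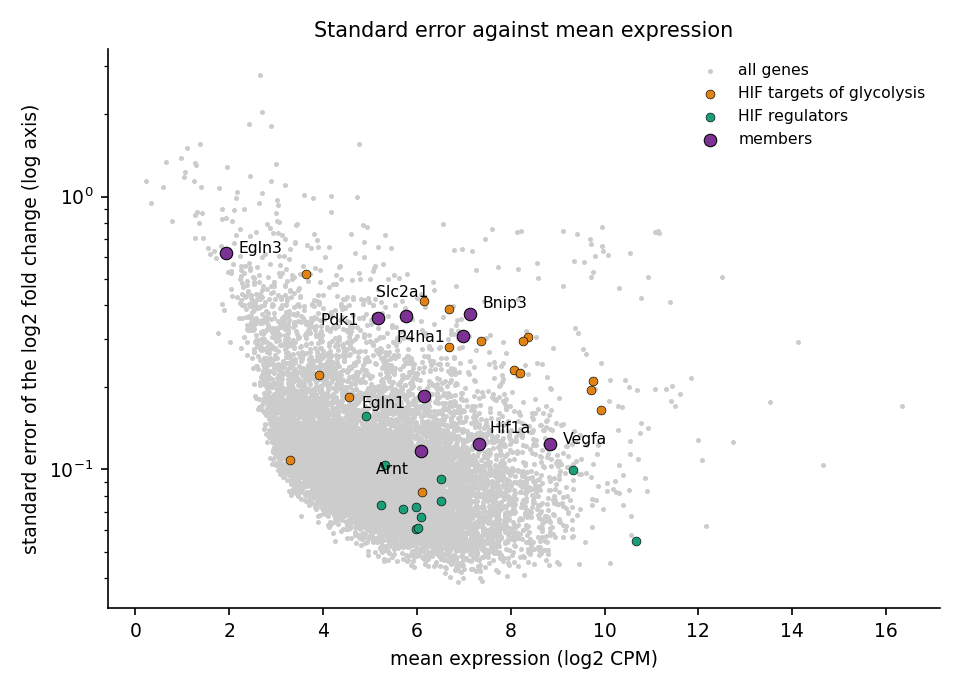
Standard error of the log2 fold change (log axis) against mean expression in log2 CPM for all genes (grey), the members (purple), other HIF regulators (green) and glycolytic HIF targets (orange). Slc2a1, Bnip3, Pdk1 and P4ha1 lie at the upper edge of the cloud, with errors of 0.31 to 0.37, while Arnt, Hif1a and Vegfa lie lower, at 0.12.

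The members also differed in how far samples of 1 group varied. The standard error of each gene was ranked among the 500 genes nearest to it in mean expression, 250 on each side. Bnip3 and Slc2a1 stood at percentile 99.4, P4ha1 at 98.8 and Pdk1 at 98.4, while Egln1 stood at 95, Egln3 at 89.0, Hif1a at 80.8, Arnt at 77.4 and Vegfa at 71.8. The error of Bnip3 was 4.57 times the median of its neighbours in expression, that of Slc2a1 4.16 times, that of Pdk1 3.85 times and that of P4ha1 3.81 times. If all 16 samples entered the fit with equal weight, these errors correspond to a standard deviation between samples of a group of 0.74 log2 units for Bnip3, 0.73 for Slc2a1, 0.71 for Pdk1 and 0.61 for P4ha1. The same quantity was 0.25 for Hif1a and 0.25 for Vegfa. So 4 of 9 members lay above percentile 98, beside 2.02% of all genes; the measure and this bound were chosen after the values were seen, the members share the same samples, and no test was made.

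Wide errors were also seen in other HIF targets. Of 39 measured HIF targets outside glycolysis, 20 lay above percentile 90, with a median of 91.0, and of the 32 that are no members 15 did, with a median of 89. Of 17 measured glycolytic HIF targets, 10 lay above percentile 95, with a median of 96.0. Ldha, lactate dehydrogenase A, was at 99.8, named after its value was seen. The 14 regulators of HIF had a median of 39.6, or 31.4 without Egln1 and Egln3. Wide errors were not particular to HIF targets. Medians were 89 for the adrenomedullin list, 88 for the VEGF list, 86 for collagen hydroxylases and 84.7 for HIF subunits. They were lower for the other dioxygenases (70), glucose transporters (65.6), the pyruvate dehydrogenase list (38.6) and mitophagy receptors (29.2). The genes of the pyruvate dehydrogenase complex lay apart in this measure. Pdk1 was at 98.4 and its paralogue Pdk4 at 98, while the paralogues Pdk2 and Pdk3 were at 73.6 and 70.4. The phosphatase genes Pdp1 and Pdp2 were at 73.8 and 18.2. The subunit genes ran from 0.6 (Pdha1) to 38.6 (Dld), with Pdhb at 12.4. Markers of single cell types also had wide errors, with medians of 98 for 8 acinar, 95.8 for 10 endothelial and 81.9 for 10 beta-cell markers. Medians of the other marker lists were 99.9 for red blood cells, 99 for pericytes and stellate cells and 96.8 for ductal cells. Those of alpha cells, leukocytes and delta cells were 92, 90.2 and 88. The part of cell makeup in the spread of the HIF targets was not tested, and the table holds no sample values with which to see whether they varied together.

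**Figure D3:**
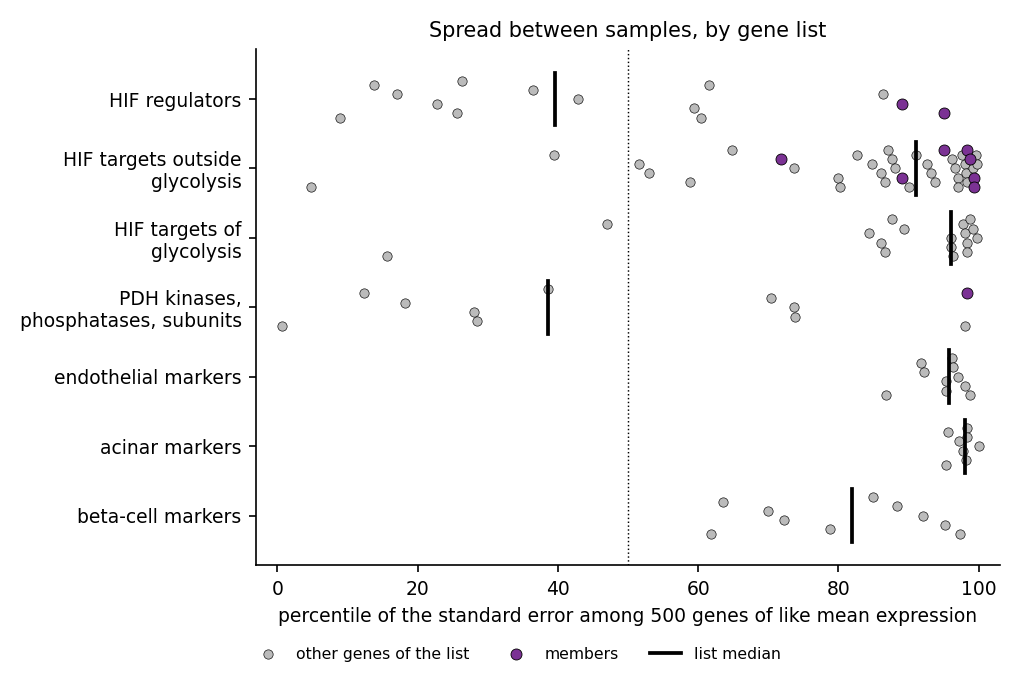
Percentile of each gene's standard error among the 500 genes nearest in mean expression (horizontal axis), by gene list, with members in purple and list medians as bars. The medians are 96.0 for glycolytic HIF targets and 91.0 for other HIF targets, beside 39.6 for HIF regulators; endothelial and acinar markers also lie high.

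Of the HIF targets outside glycolysis, 39 were measured, 7 of them members. Among the 32 that are no members, 1 was higher, 9 were lower and 22 were not called, and 18 had a negative value, with a median of -0.06, from the authors' deposited table. The 28.1% that were lower stand beside 20.1% of all genes, the 3.12% that were higher beside 17.6%, and the 31.2% called in either direction beside 37.6%. With the members, Pdk1 among the genes that fell, the counts were 1 higher, 10 lower and 28 not called, and the median was -0.13. The 4 genes with the smallest p that are no members were Cxcr4, the receptor of the chemokine CXCL12, at -1.56 ± 0.25, the muscle-type glycogen synthase gene Gys1 at -1.71 ± 0.34, the haem oxygenase gene Hmox1 at -2.11 ± 0.47 and the collagen lysyl hydroxylase gene Plod1 at -0.80 ± 0.19, from the authors' deposited table. Hmox1 is also a classical target of the oxidative stress factor NRF2. Loxl2, a lysyl oxidase that crosslinks collagen, was the 1 that rose, at 0.48 ± 0.12, from the authors' deposited table. Further genes that fell, named after their values were seen, were the endoplasmic reticulum oxidase gene Ero1l (-1.04 ± 0.27), the secreted glycoprotein gene Stc2 (-1.05 ± 0.31), the mitochondrial protein gene Fam162a (-1.31 ± 0.40) and the cytokine gene Mif (-1.03 ± 0.36), from the authors' deposited table. Mif has closely related pseudogenes, so its value is uncertain. On the equal-sum scale, the 39 genes had 1 higher and 15 lower, beside the 38.5% of all genes that were lower there.

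Glycolytic HIF targets were given by the same fit for comparison. Of 17 measured, none was called by limma, beside 37.6% of all genes, 2 were lower at an unadjusted p under 0.05, and the median was -0.23, from the authors' deposited table. Those were the isomerase gene Gpi1 (-0.54 ± 0.23) and the phosphofructokinase gene Pfkl (-0.89 ± 0.39), with limma adjusted p of 0.0768 and 0.0780, from the authors' deposited table. Aldolase A, Aldoa, at -0.39 ± 0.19, and enolase, Eno1, at -0.57 ± 0.30, came next, from the authors' deposited table. Near-identical copies of such enzyme genes exist in the mouse genome, so their values are uncertain. On the equal-sum scale 3 of the list were lower and none higher, beside 38.5% of all genes lower and 8.42% higher there.

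**Figure D4:**
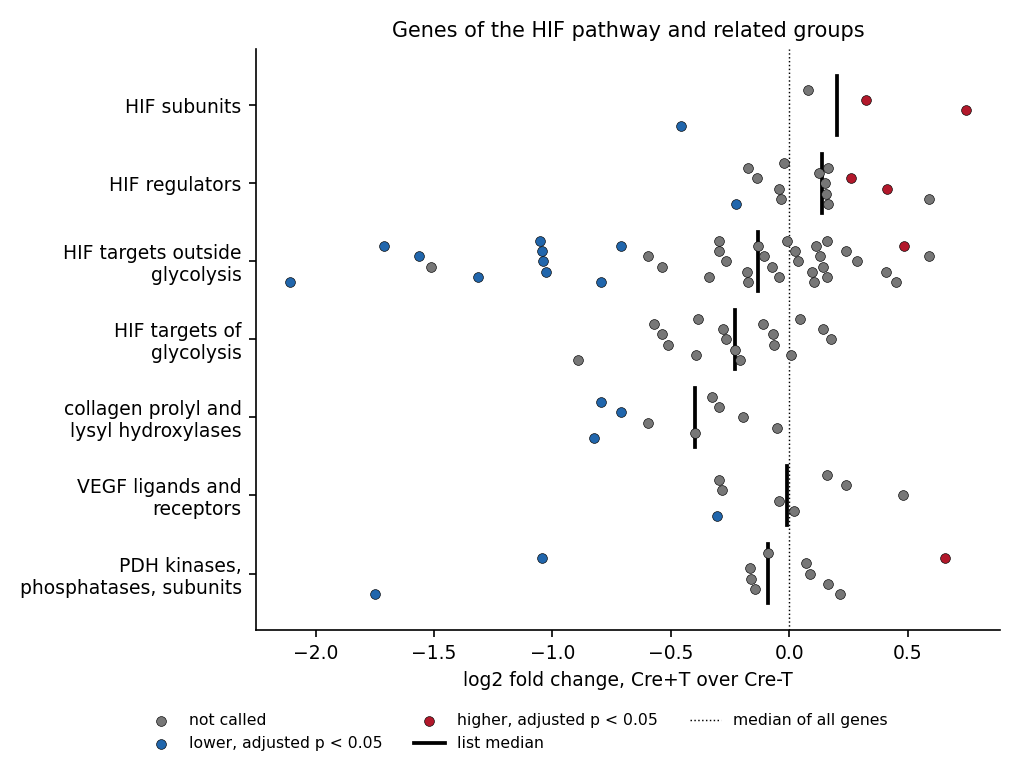
Log2 fold change, Cre+T over Cre-T, of each measured gene in 7 lists; each point is a gene, black bars are list medians and the dotted line is the median of all genes. Targets outside glycolysis, members included, have 10 points called lower and 1 called higher, the glycolytic targets have none called, and all 9 collagen hydroxylases lie below 0.

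In the group of Pdk1, which sets the activity of pyruvate dehydrogenase, 2 kinase genes fell and 1 phosphatase gene rose. The other 8 of 11 measured genes were not called, from the authors' deposited table. The share called was 27.3%, or 20% without Pdk1, which is below the 37.6% of all genes. Pdk4, the kinase induced by fasting and fatty acids, fell more than Pdk1 in the point estimate, at -1.75 ± 0.33 with a limma adjusted p of 0.00168, and the difference between them was not tested, from the authors' deposited table. Pdp1, a phosphatase that reactivates the complex, rose by 0.66 ± 0.15, from the authors' deposited table. The subunit genes Pdhx (0.21 ± 0.09) and Dld (0.17 ± 0.07) were not called, from the authors' deposited table.

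Collagen hydroxylases, the group of P4ha1, had negative values in all 9 measured genes, with a median of -0.40, and 3 fell while none rose, from the authors' deposited table. The 33.3% called stand beside 37.6% of all genes in either direction and 20.1% lower; without P4ha1, 8 of 8 values were negative, with a median of -0.36. No gene of the list was higher by limma at an unadjusted p under 0.05, and 5 were lower. The prolyl 3-hydroxylase gene Lepre1 (now P3h1) fell (-0.82 ± 0.17 log2 units), Plod1 as above, and P4ha2, the paralogue of P4ha1 (-0.71 ± 0.22), from the authors' deposited table. Plod3 was at -0.33 ± 0.14 and not called, from the authors' deposited table. On the equal-sum scale the list had 5 lower and none higher, beside 38.5% of all genes lower and 8.42% higher there. Markers of pericytes and stellate cells, which make collagen, were mixed: of 6 measured, Rgs5 was higher at 1.51 ± 0.36 and Pdgfrb was lower at -0.94 ± 0.35. The others were not called: Col1a1 (-0.93 ± 0.57), Col1a2 (0.41 ± 0.42), Col3a1 (0.15 ± 0.42) and Acta2 (1.20 ± 0.61), from the authors' deposited table. Their estimated summed level was 233 CPM in Cre+T and 200 in Cre-T. That sum includes Rgs5, estimated at 6.23 log2 CPM in Cre+T and 4.71 in Cre-T, so it does not stand for the list as a whole. Cspg4 had no row, and the part of these markers in the hydroxylase values was not tested.

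Of the VEGF ligands and receptors, 8 were measured, and Vegfb, a ligand that signals through FLT1, fell (-0.31 ± 0.08 log2 units), from the authors' deposited table. None was higher by limma at an adjusted p under 0.05, and 1, the coreceptor gene Nrp2 at 0.48 ± 0.21, was at an unadjusted p under 0.05, from the authors' deposited table. The ligand gene Pgf (0.24 ± 0.18) and the coreceptor gene Nrp1 (-0.28 ± 0.22) were not called, from the authors' deposited table. The receptor genes Kdr and Flt1, which are endothelial, were at 0.02 ± 0.21 and 0.16 ± 0.20 and not called, from the authors' deposited table. That is 12.5% called, beside 37.6% of all genes. Although Adm had no row, 4 genes of the adrenomedullin group did, of which 50% were called. Adm2, the paralogous peptide, fell (-2.64 ± 0.37 log2 units), and Ramp3, a receptor accessory protein, rose by 1.16 ± 0.23, from the authors' deposited table. Ramp2 (-0.35 ± 0.18) and the receptor gene Calcrl (0.17 ± 0.35) were not called, from the authors' deposited table.

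Among 5 measured facilitative glucose transporters (20% called, beside 37.6% of all genes), the intracellular transporter gene Slc2a8 fell (-0.48 ± 0.13 log2 units), and none was higher by limma at an adjusted p under 0.05, from the authors' deposited table. At an unadjusted p under 0.05, 2 were higher: Slc2a2, the main transporter of mouse beta cells, at 0.61 ± 0.24 (limma adjusted p = 0.0573), and the fructose transporter gene Slc2a5 at 0.24 ± 0.10, from the authors' deposited table. Slc2a13, a proton-coupled myo-inositol transporter of the same family, was at -0.01 ± 0.13, from the authors' deposited table. Of 6 mitophagy receptors (16.7% called), Fundc1, which acts in hypoxia, fell (-0.26 ± 0.09 log2 units), from the authors' deposited table. Bnip3l, the paralogue of Bnip3, was at -0.34 ± 0.14 with a limma adjusted p of 0.0668, and Phb2 (0.09 ± 0.06) and Bcl2l13 (0.14 ± 0.10) were not called, from the authors' deposited table. No gene of this list was higher by limma, also at an unadjusted p under 0.05, where 2 were lower. None of 9 other oxygen-dependent dioxygenases, histone and DNA demethylases among them, was called by limma, and 2, Tet3 (0.28 ± 0.12) and Tet1 (0.39 ± 0.16), were higher at an unadjusted p under 0.05, from the authors' deposited table. The next by p were Tet2 at 0.35 ± 0.17 and Kdm4b at -0.10 ± 0.10, from the authors' deposited table.

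Set on a scale per length, Vegfa was the most abundant member, at 7.05 log2 CPM per kilobase of its longest annotated transcript. Bnip3 followed at 6.31, Hif1a at 5.09, P4ha1 at 4.98, Egln1 at 4.31, Slc2a1 at 4.05, Arnt at 3.98, Pdk1 at 2.81 and Egln3 at 0.52. These are means over all samples. Their errors are unknown, so whether neighbours in this order differ beyond their spread could not be shown.

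Markers of cell types were read in the same comparison, in which 37.6% of all genes were called, 17.6% higher and 20.1% lower. All 8 measured acinar markers were higher, with a median of 2.53 log2 units and an estimated summed level of 28100 CPM in Cre+T against 6660 in Cre-T; Ptf1a and Amy2b had no row. Of 4 red blood cell markers 3 were higher (summed 173 against 17.3 CPM), and of 5 leukocyte markers 2 were higher and none lower (151 against 80.5 CPM), while Ptprc, Csf1r, Cd3e and Cd79a had no row. By limma none of 5 ductal markers was called, with 1 higher at an unadjusted p under 0.05, and none of 3 delta-cell markers was called, also unadjusted. Alpha-cell markers gave 1 higher and 1 lower of 5, and beta-cell markers 6 higher and 1, Ins2, lower of 10. The share called among alpha-cell markers, 40% in either direction, lies near that of all genes. Among leukocyte markers it was also 40%, but all of it higher, beside 17.6% of all genes higher. The part of these shifts in the HIF pathway values was not tested.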

How the data were processed

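The labels' protocols describe total RNA of islets read as pairs of 150 bp. The submitters' processing notes name TopHat2, GRCm38 and limma without versions; the counting tool and any filter on low genes are not named there. Per the file headers, the deposited table gives a log2 fold change, a mean on the log2 scale (read as log2 CPM, since the sheet is named for voom), a moderated t score and a log-odds score, together with the p-value, its adjusted form and a q-value, for each gene, and no samples. The authors' adjusted p-value was checked to be Benjamini-Hochberg over all 10208 rows, and the q-value was 0.325 times it. The p-values follow from t at 16.1 degrees of freedom.

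Standard errors (fold change over t), intervals, group levels and the ranks of errors were computed with Python 3.11.15, numpy 2.4.6, pandas 2.3.3 and scipy 1.17.1. Simulated data, built from the same errors and degrees of freedom, checked only the code that recovers these and the Benjamini-Hochberg adjustment. Intervals, group levels and ranks were not checked in that way. Names repeated in the table were resolved by the highest mean; gene positions and longest transcripts come from GENCODE release M21 (10190 rows matched without version). Genes were called at the authors' adjusted p under 0.05 over the whole table. Genes named are the members, Ins2, Esr1 and the 4 of each list with the smallest p; others were named after their values were seen. The members and the lists were chosen with earlier results of these data known. Alternatives were adjusted p under 0.01 or 0.1, Holm adjustment, 2 filters on mean expression, a minimum change, 3 scalings and the q-value. The equal-sum scale uses sums of group means taken back from the log scale, estimated with groups of 7 and 9, and gives no true total.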

Additional observations from a re-analysis of the deposited data

How the results depend on the processing

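The member counts, 1 higher and 1 lower, went to 0 and 0 at an adjusted p under 0.01 and with Holm adjustment. They were 1 and 2 at an adjusted p under 0.1, 1 and 3 by the authors' q-value, 0 and 1 with a log2 fold change of at least 0.5, and 0 and 2 with summed expression equal or the median ribosomal protein gene at 0. With the lower-expressed genes left out (mean under the median) they were 1 and 0, since Pdk1 is then not among the genes tested. Over all genes, the counts higher and lower were 756 and 1079 at an adjusted p under 0.01, 2308 and 2524 at 0.1, and 32 and 106 with Holm adjustment. They were 1096 and 803 above the median mean, 803 and 724 with the minimum change, and 2700 and 2851 by the q-value. With summed expression equal they were 860 and 3934, and with the ribosomal scaling 1239 and 2839. The 110 measured genes of the 11 pathway lists, 7 higher and 18 lower, gave 3 and 8 at an adjusted p under 0.01 and above the median mean. They gave 16 and 25 at 0.1, 0 and 1 with Holm adjustment, 3 and 13 with the minimum change, and 17 and 30 by the q-value. With summed expression equal they gave 3 and 35, and with the ribosomal scaling 3 and 25. P4ha1 passed at the authors' q-value (0.0442; over the alternatives its adjusted p ranged from 0.0442 to 1). Hif1a, Egln1, Egln3, Bnip3 and Slc2a1 were not called in any of these alternatives. Apart from what the scalings and smaller sets of genes do by construction, the cause of these changes was not tested.

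No paired analysis was possible because the deposited table has no values per sample, and leaving out single samples was not run for the same reason. The spread between samples sets the limit: at their errors, changes under 0.81 log2 units for P4ha1 and 0.97 for Bnip3 miss the threshold.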
